A study of Drosophila melanogaster with 3 samples.

Results

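The genes described here are those of the cytosolic ribosomal proteins, as picked by symbol. They were found on the arrays by CG number, as probes whose current symbol starts with RpL (large subunit) or RpS (small subunit), together with stubarista (sta), which encodes another small-subunit protein. The rule found 76 genes with 89 cDNA probes among 9144 named genes and 11733 probes tested: 47 large-subunit genes with 57 probes and 29 small-subunit genes with 32 probes. RpL7-like, RpL24-like and RpLP0-like were counted with the large subunit by symbol alone. All 89 probes passed the filter on dim probes. A further 16 genes of the 92 that carry such symbols had no probe used here, and 1 gene of the family was not analysed here.

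RNA of homozygous kep1 mutant males (kep1-/kep1-) was compared with RNA of wild-type males (w1118) on 3 spotted 2-colour cDNA arrays, with 1 mutant and 1 wild-type RNA on each. Per the labels, the mutant RNA carried Cy5 and the wild-type RNA Cy3 on every array, so a dye effect of a probe and the effect of genotype cannot be told apart. The males were 3 to 4 days old and the RNA came from heads according to the design text, a tissue that the source labels do not repeat. The labels give neither the kind of kep1 allele nor the number of flies behind each RNA. Whether the 3 arrays carry separate RNA preparations is not known here. The p-values thus reflect only how the ratios of these 3 arrays vary. Arrays are numbered here in the order of their records. Array 2 carries the number 3 in its record title, and array 3 is titled I vs J there. A log2 ratio is always that of mutant over wild type, so a negative value means less signal in the mutant.

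Ribosomal proteins join ribosomal RNA to form both subunits of the ribosome, which carries out all cytosolic protein synthesis. In Drosophila, loss of 1 copy of many of these genes gives the Minute phenotype of slow development and thin bristles. Their transcripts are among the most abundant of most cells, and their translation is under the control of the TOR pathway. Kep1 is an RNA-binding protein with a KH domain, of a family that acts in the processing of RNA.

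The kep1 probe had a foreground intensity of 254, 240.3 and 228 in the mutant channel of arrays 1, 2 and 3, against 852, 865 and 1343 in the wild-type channel. Its log2 ratio was -1.59, -1.35 and -2.13, in the direction the labels give, with a mean that missed the threshold of 0.05 over all probes (limma adjusted p = 0.0726). Head and neuron markers were present, with 9 of 10 above the 95th percentile of the blank spots in all 6 channels and median log2 ratios of 0.18, -0.26 and 0.14 on arrays 1, 2 and 3. Markers of other tissues were present as well. The 12 gut markers measured had summed foreground intensities of 7579 to 13293 in the mutant channels, against 18434 to 33948 in the wild-type channels, and a median log2 ratio of -1.03. LysS was above the blank level in no channel. The 13 testis markers had sums of 10651 to 13317 in the mutant channels, against 22056 to 24028 in the wild-type channels, and a median of -0.84, with aly and janB above the blank level in no channel. The 4 accessory gland markers had a median of -1.27, with sums of 2859 to 10814 in the mutant channels and 5203 to 19129 in the wild-type channels. The 7 female markers measured had a median of 0.014 and no shared direction. Their sums on arrays 1, 2 and 3 were 4605, 6213 and 4595 in the mutant channels. In the wild-type channels they were 5006, 2274 and 4498, so the mutant sum was well above the other on array 2 only. Yp2, bcd, osk and yl had mean log2 ratios between -0.27 and 0.067, with osk and yl above the blank level in no channel. Yp3, a yolk protein gene, had log2 ratios of 0.78, 2.39 and 0.64. The gene fit had 0.31, 2.93 and 1.17, and Yp1 had -2.54, 2.96 and -0.78. Array 2 was thus the highest for these 3 genes, which were named after their values were seen. The part of these tissues in the values below was not tested. In RNA of whole tissue, fewer cells of a type and less RNA per cell cannot be told apart.

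Ribosomal protein transcripts gave strong signals in both genotypes. Over the 89 probes the median foreground intensity was 1220.1, 1320.1 and 694 in the mutant channels of arrays 1, 2 and 3, against 1028, 1318 and 812 in the wild-type channels. Over all probes the medians were 275, 255 and 227 in the mutant channels and 291, 307 and 248 in the wild-type channels. The median member stood at the 88.0th percentile of brightness among all genes, and 68 of the 76 genes were brighter than the median gene. In all, 60 probes were above that blank level in all 6 channels, as were the brightest probes of 53 genes. The probes of RpS19b and RpS20 were above it in none, so their ratios carry little information.

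None of the 89 probes passed the threshold between mutant and wild type after adjustment over all 11733 probes (limma with Benjamini-Hochberg adjustment; lowest adjusted p = 0.159, for RpS6). Over all probes 17 passed, which is 0.145%. At an unadjusted p under 0.05, limma counted 0 of the 76 genes as higher in the mutant, where the share over all genes was 5.69%, and 5 as lower, where that share was 9.98%. Each gene is represented here by its brightest probe. The same count over the 89 probes gave 1 higher, a dimmer probe of RpL30, and 5 lower, against shares of 6.24% and 9.25% over all probes. Log2 ratios were above 0 on all 3 arrays for 4 genes, where the share over all genes was 17.8%, and below 0 on all 3 arrays for 16 genes, where that share was 21.5%.

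The intervals show how large a difference the normalized values leave room for under the main processing. The 95% interval of the mean log2 ratio lay within -1 and 1, a 2-fold difference either way, for 76 of 76 genes, and within -0.5 and 0.5 for 72 of 76. Over all genes those shares were 96.3% and 82.2%. Over the brightest probes of the members, the lowest bound was -0.84, for RpL12, and the highest was 0.51, for RpL37A. Some dimmer second probes reached higher. Their intervals were 0.091 to 0.84 for RpL30, -0.075 to 0.59 for RpL37A and -0.011 to 0.54 for RpL39. A missed threshold does not show equal levels in the genotypes. Under the main processing the interval of each of these genes held differences under 2-fold only. For dim members the intervals do not bound the true difference. RpS19b and RpS20, above the blank level in no channel, had intervals of -0.12 to 0.15 and -0.017 to 0.26. The mean of RpL10Aa moved from -0.23 to -0.53 with plain background subtraction, outside its interval of -0.38 to -0.077.

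**Figure D1:**
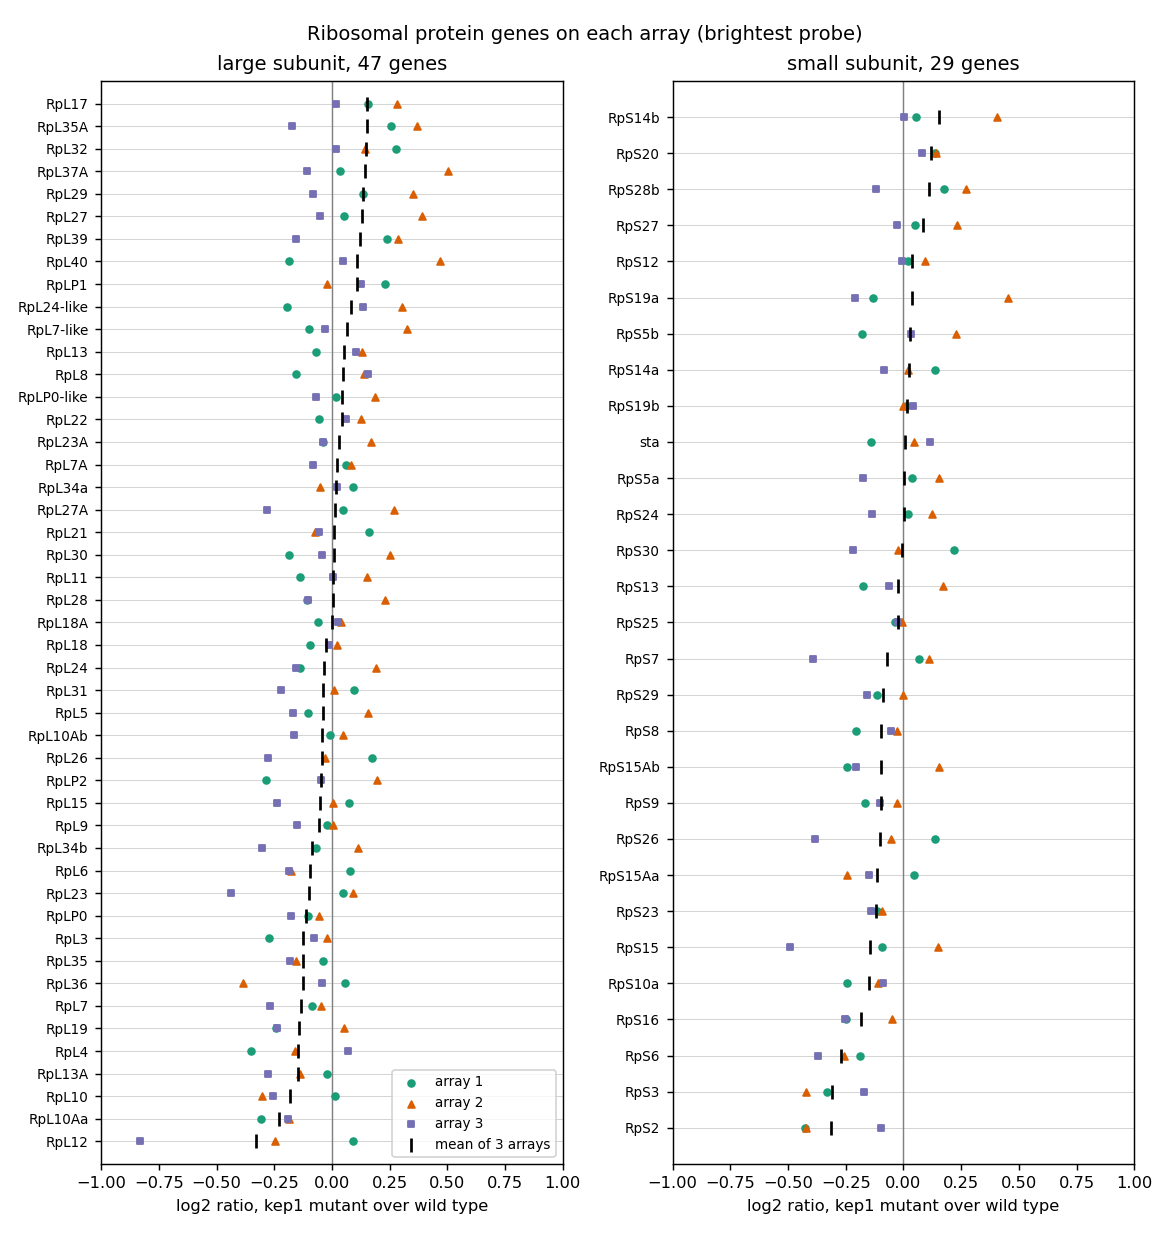
Log2 ratio of kep1 mutant over wild type for each of the 76 ribosomal protein genes, by its brightest probe, with the 47 large-subunit genes on the left and the 29 small-subunit genes on the right, ordered by their mean. Coloured symbols are the 3 arrays and black bars their mean; the means run between -0.33 and 0.15, and the orange symbols of array 2 often lie to the right of the others.

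The 5 genes counted as lower at an unadjusted p under 0.05 were RpS6, RpS3, RpL10Aa, RpS2 and RpS16, and 4 of them encode small-subunit proteins. RpS6, the small-subunit protein that S6 kinase phosphorylates, had foreground intensities of 314, 1455 and 1532 in the mutant channel of arrays 1, 2 and 3, against 369.9, 2052 and 2009.7 in the wild-type channel. Its mutant value was the smaller on each array. On array 1 both channels were dim, near the 95th percentiles of the blank spots (313.6 mutant, 344.9 wild type). After normalization the log2 ratios of RpS6 were -0.19, -0.26 and -0.37, a mean of -0.27 ± 0.09 (SD, n = 3 arrays; limma adjusted p = 0.159).

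RpS3, which lies at the mRNA entry channel, was the brightest member on average, with 9520.4, 12589 and 20989 in the mutant channel and 10559.7, 19535 and 24311 in the wild-type channel. Its log2 ratios were -0.33, -0.42 and -0.17, a mean of -0.31 ± 0.13 (limma adjusted p = 0.162). RpS2, its neighbour at the entry channel, had 3002, 4112 and 3255 in the mutant channel and 3463, 6429 and 3561 in the wild-type channel. Its log2 ratios were -0.43, -0.42 and -0.096, a mean of -0.32 ± 0.19, or 1.24-fold less in the mutant (limma adjusted p = 0.221). Both genes were below 0 on all arrays, and array 3 gave the value nearest to 0 for each. The third protein named at the entry channel, RpS30, had log2 ratios of 0.22, -0.026 and -0.22, so that its arrays lay on both sides of 0.

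RpS16, whose protein reaches into the decoding region of the small subunit, had log2 ratios of -0.25, -0.051 and -0.25, a mean of -0.18 ± 0.12 (limma adjusted p = 0.312). RpL10Aa, the only large-subunit gene of the 5, had dim signals of 184, 241 and 132 in the mutant channel and 311, 335 and 229 in the wild-type channel. These were above the blank level in 2 of 6 channels. Its log2 ratios were -0.31, -0.18 and -0.19, a mean of -0.23 ± 0.07 (limma adjusted p = 0.181). The value depended on the background correction and stood at -0.53 with plain subtraction and at -0.57 in the deposited log2 table. The testis markers had a median of -0.84 on the same arrays. The part of testis RNA in the RpL10Aa value was not tested.

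The other genes of the 10 with the most negative means among those below 0 on all arrays were RpS10a (-0.15 ± 0.09), RpL13A (-0.15 ± 0.13), RpL7 (-0.13 ± 0.12), RpL35 (-0.12 ± 0.08) and RpL3 (-0.12 ± 0.13), each with a 95% interval that included 0. RpL3 encodes a protein that reaches into the peptidyl transferase centre. The 4 genes above 0 on all arrays were RpS14b, RpL17, RpL32 and RpS20. RpS14b had log2 ratios of 0.054, 0.40 and 0.0043, a mean of 0.15 ± 0.22. RpL17, a protein of the exit tunnel, had 0.16, 0.28 and 0.016, a mean of 0.15 ± 0.13. For both genes array 3 was close to 0 and array 2 was the highest, and neither passed the threshold (limma adjusted p = 0.558 for RpS14b and 0.423 for RpL17).

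Members of the ribosomal stalk, which recruits the translation factors to the large subunit, had no shared direction. RpLP0, the base of the stalk, had log2 ratios of -0.10, -0.054 and -0.18, below 0 on each array. RpLP1 had 0.23, -0.024 and 0.12, and RpLP2 had -0.29, 0.19 and -0.049, each with arrays on both sides of 0. RpL12, which binds beside the stalk base, had the lowest mean of all members and the largest SD, with 0.091, -0.25 and -0.83 and a mean of -0.33 ± 0.47. That mean depended on the processing and on array 3: it was -0.16 with no background subtraction, where RpL10Aa stood at -0.52, -0.10 with plain subtraction or in the deposited log2 table, and -0.079 without array 3. Its duplicate spots on array 3 differed by 1.34 on the log2 scale, against a median difference of 0.081 over the members on that array, so the array farthest from the others was also the one with uneven spots.

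RpL5 and RpL11, which carry the 5S ribosomal RNA into the large subunit, had means of -0.040 ± 0.17 and 0.0066 ± 0.15. RpL40, made as a fusion with ubiquitin, had log2 ratios of -0.19, 0.47 and 0.049, a mean of 0.11 ± 0.33, and array 2 alone set it above 0.1. RpL10, which lies near the peptidyl site, had a mean of -0.18 ± 0.17 by its brighter probe. Among the genes whose proteins line the exit tunnel or lie at its mouth, RpL4 had -0.15 ± 0.21, RpL22 0.043 ± 0.09, RpL23A 0.030 ± 0.12 and RpL39 0.12 ± 0.24. The 6 of this group had a median of 0.037. At the mRNA exit side of the small subunit, sta stood at 0.0072 ± 0.13, RpS5a at 0.0044 ± 0.17, RpS14a at 0.024 ± 0.11, RpS26 at -0.10 ± 0.26 and RpS28b at 0.11 ± 0.20, with a median of 0.016 over the 6 genes that include RpS14b. Of the groups with over 1 gene, the mRNA entry genes had the lowest median, at -0.31 over 3 genes. That median is the value of RpS3 by its brighter probe. The second RpS3 probe averaged -0.11, and RpS30 of the same group had a mean of -0.0075.

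The large and the small subunit differed little. The median of the mean log2 ratio was 0.0011 over the 47 large-subunit genes, -0.022 over the 29 small-subunit genes, -0.022 over all 76 and -0.0070 over all genes tested. On arrays 1, 2 and 3 the large-subunit median was -0.024, 0.092 and -0.084, and the small-subunit median was -0.095, 0.020 and -0.12. The large-subunit median was the higher on each array, by 0.071, 0.072 and 0.034. Array 2 stood apart from arrays 1 and 3 by more than these gaps within either subunit, while arrays 1 and 3 were closer to each other than that for the small subunit. The order of the subunits over the mean ratios turned with plain background subtraction (-0.019 large, -0.018 small) and with the mean of a gene's probes (-0.028 large, -0.022 small). At an unadjusted p under 0.05, 1 of 47 large-subunit and 4 of 29 small-subunit genes were lower, beside the share of 9.98% over all genes. Summed over the genes, the foreground intensity of the large subunit was 99707, 114984 and 73684 in the mutant channels and 90909, 130736 and 80763 in the wild-type channels. For the small subunit it was 52726, 76155 and 63546 in the mutant channels and 50892, 91269 and 71687 in the wild-type channels. These sums precede normalization and lie higher in the mutant channel on array 1 and lower on arrays 2 and 3 for both subunits.

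The members' position also varied with the array. On array 1, 34 of the 76 genes were above 0 and 42 below, with a median of -0.036. On array 2, 47 were above 0 and 29 below, with a median of 0.066. On array 3, 17 were above 0 and 59 below, with a median of -0.10. Over all genes the medians were -0.0034, -0.014 and -0.0032 on the same arrays, so the members as a body stood on different sides of the genome-wide centre on different arrays. Array 2, where the members stood above 0, was also the array on which the head and neuron markers had a median below 0 (-0.26) and the yolk protein genes Yp1 and Yp3 were highest; the part of either in the members' values was not tested. The SD over the 3 arrays had a median of 0.150 for the members and 0.118 for all genes. Across genes, which share libraries, dyes and normalization and are not independent replicates, the members' log2 ratios correlated between arrays with Pearson's r of 0.213 (arrays 1 and 2), -0.101 (arrays 1 and 3) and 0.272 (arrays 2 and 3). Over all 9144 genes the values were 0.384, 0.699 and 0.445.

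**Figure D2:**
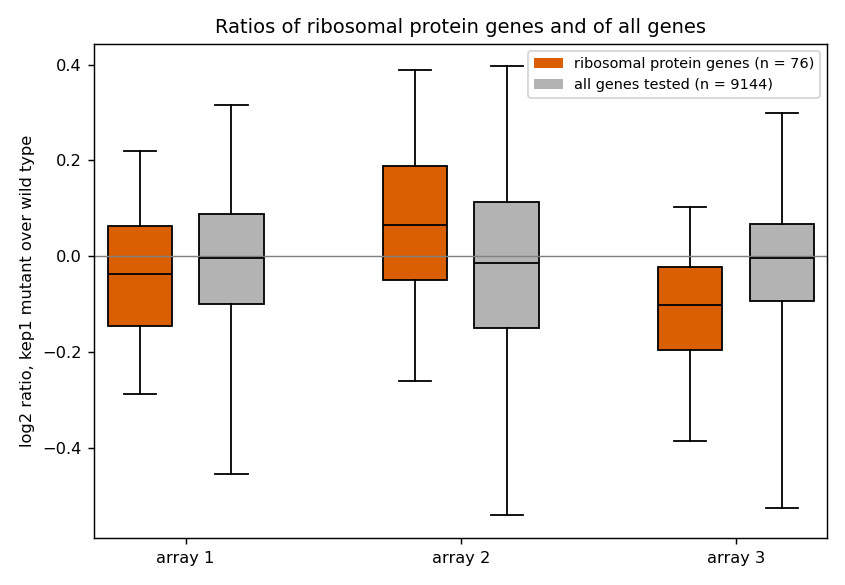
Log2 ratios of kep1 mutant over wild type on each array for the 76 ribosomal protein genes (orange, left box of each pair) and all 9144 genes tested (grey, right box). Boxes span the quartiles with the median as a line and whiskers run between the 5th and 95th percentiles; the orange medians are -0.036, 0.066 and -0.10, while the grey medians lie within 0.014 of 0.

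The members lay closer together than genes at large. Their mean log2 ratios had an SD over genes of 0.114 and a 5th to 95th percentile range of -0.24 to 0.14, while over all genes the SD was 0.244 and that range was -0.42 to 0.24. The 62 mitochondrial ribosomal protein genes had a similar SD of 0.115 and a range of -0.097 to 0.21. They were dimmer, with 12 of 62 above the blank level in all 6 channels and 8 in none, against 53 and 2 of the 76 members. The spreads are thus not a like comparison, and whether a narrow spread is particular to the cytosolic ribosome was not tested. Brighter members tended to have lower ratios, with a Pearson's r of -0.315 between mean log2 ratio and mean log2 intensity over the 76 genes and -0.116 over all genes, given as a description since both axes come from the same spots. The 26 dimmest members had a median of 0.0070, the 24 of middle brightness -0.045 and the 26 brightest -0.054. By chromosome arm the median was 0.0073 for the 15 genes on 2L, -0.047 for the 15 on 2R, -0.042 for the 11 on 3L, -0.047 for the 22 on 3R and 0.020 for the 13 on X.

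**Figure D3:**
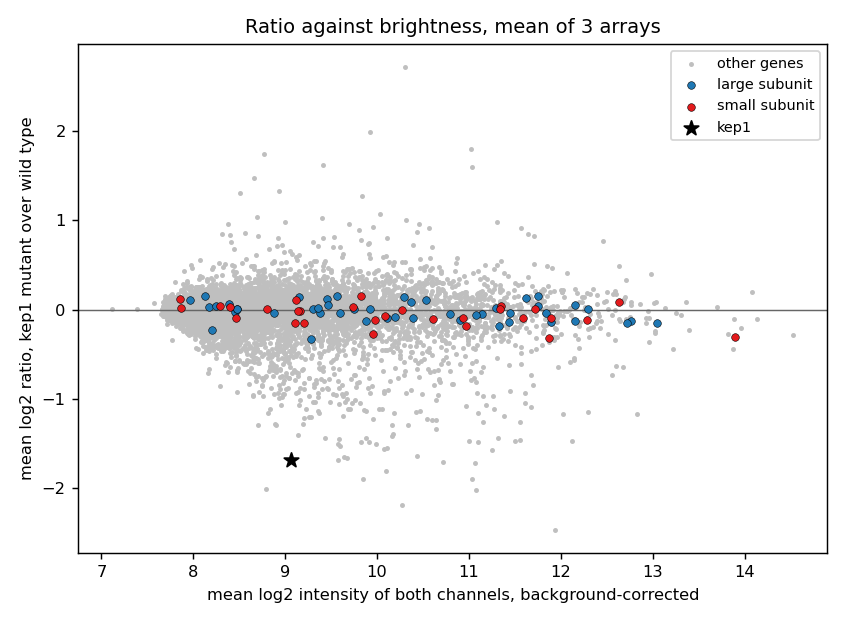
Mean log2 ratio of kep1 mutant over wild type over 3 arrays against the mean background-corrected log2 intensity of both channels, with each point 1 gene (brightest probe). Large-subunit genes (blue) and small-subunit genes (red) lie mostly in the brighter part of the cloud of other genes (grey), between -0.33 and 0.15, while the star marks kep1 at -1.69.

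For 13 genes the array held 2 probes, whose agreement measures how far 1 probe can be trusted. The mean log2 ratios of the pair differed by 0.0064 to 0.46. RpL30 had the largest difference. Its brighter probe, RH09938, had foreground intensities of 877, 522 and 579.6 in the mutant channel and 863, 510.1 and 609 in the wild-type channel, with log2 ratios of -0.19, 0.25 and -0.043. Its dimmer probe, RE25263, had 276, 617 and 438 in the mutant channel and 247, 385 and 279.7 in the wild-type channel, with log2 ratios of 0.15, 0.81 and 0.43. The dimmer probe was above 0 on each array with a mean of 0.46 ± 0.33 (limma adjusted p = 0.239), while the brighter one averaged 0.0073 ± 0.22, and the brighter minus the dimmer was -0.34, -0.56 and -0.47. A difference of 1 sign on all 3 arrays occurred in 2 of the 13 pairs, RpL30 and RpL32. The share of such pairs over all genes was not counted, so this count is a description only. The RpL32 probes were dim, above the blank level in 2 and 1 of the 6 channels.

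RpL35A differed by 0.23 between its brighter and dimmer probe (0.15 and -0.083), RpL7 by -0.20 (-0.13 and 0.069), RpS3 by -0.20 (-0.31 and -0.11), RpL10 by -0.16 (-0.18 and -0.025) and RpL39 by -0.14 (0.12 and 0.26). For RpS3, the second probe, GH06471, had log2 ratios of -0.24, 0.11 and -0.18, so that array 2 was above 0 for this probe and the lowest of the 3 for the brighter one. The mean over both RpS3 probes was -0.21 (limma adjusted p = 0.202). The remaining pairs, of RpL32, RpL23A, RpL37A, RpL7-like, RpS12, RpL24 and RpS15Ab, differed by at most 0.13. The pair of RpS15Ab is the same clone spotted under 1 name in separate places and differed by 0.0064 in the mean, with -0.14 to 0.15 on single arrays. Its probes were unequal in brightness, with mean log2 intensities of 11.59 and 9.60.

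**Figure D4:**
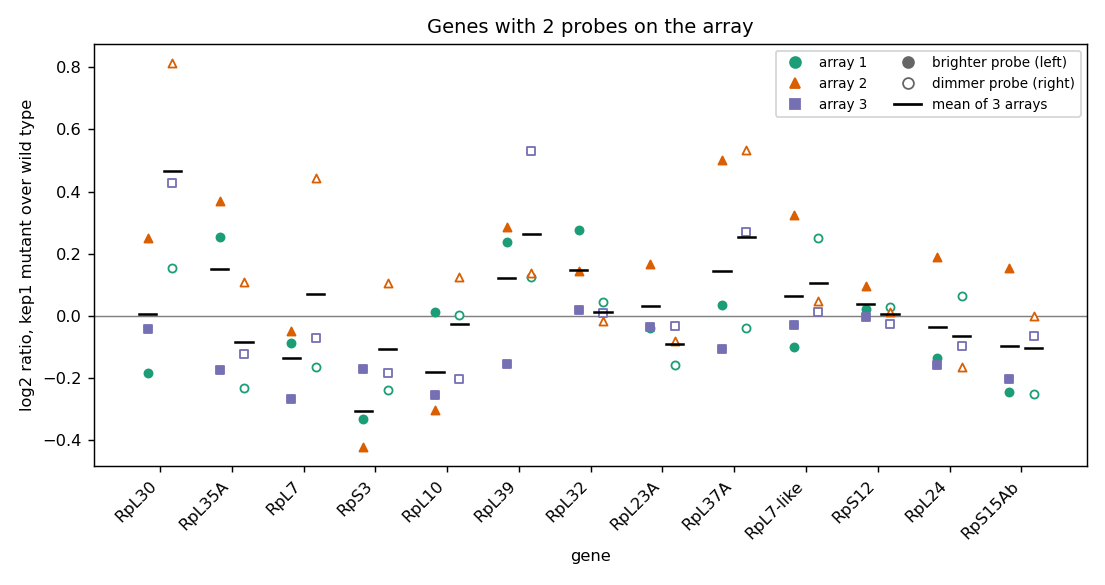
Log2 ratio of kep1 mutant over wild type for the 13 genes with 2 probes, with the brighter probe left (filled symbols) and the dimmer probe right (open symbols). Symbols are the 3 arrays and bars their mean; the dimmer RpL30 probe, at a mean of 0.46, is above its brighter partner, at 0.0073, on each array.

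RpL32, also called rp49, is widely used as a reference transcript in Drosophila. Its brighter probe had foreground intensities of 287, 247 and 181 in the mutant channel and 248, 252 and 166 in the wild-type channel, with log2 ratios of 0.28, 0.14 and 0.018 and a mean of 0.15 ± 0.13 (limma adjusted p = 0.434). The second probe averaged 0.012 ± 0.03. The gene was also printed as 16 control spots on each array, which had median log2 ratios of 0.055, 0.052 and 0.0051. Few of these spots stood clear of the blank spots: 2, 0 and 0 of 16 exceeded the 95th percentile of the blanks in the mutant channel, and 1, 0 and 0 in the wild-type channel. Neither the probes nor the control spots thus give a firm level for RpL32 on these arrays.

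Several ribosomal proteins of Drosophila are encoded by a pair of related genes, and 9 pairs with related symbols were measured. The pairs with RpL24-like, RpL7-like and RpLP0-like rest on the symbol, and whether these genes encode proteins of the ribosome was not tested. cDNA probes of related genes may bind each other's transcripts, so values within a pair are uncertain for either gene alone. RpLP0 was below RpLP0-like on each array, by -0.12, -0.24 and -0.11, with means of -0.11 and 0.045. RpL10Aa was below RpL10Ab on each array, by -0.30, -0.23 and -0.027, with means of -0.23 and -0.042. In both pairs a bright gene was set against a dim one. RpLP0-like and RpL10Aa were each above the blank level in 2 of 6 channels, RpLP0 and RpL10Ab in all 6. How often pairs of other genes differ with 1 sign on all arrays was not counted. In the other 7 pairs (RpL34a and RpL34b, RpS5a and RpS5b, RpS14a and RpS14b, RpS15Aa and RpS15Ab, RpS19a and RpS19b, RpL24 and RpL24-like, RpL7 and RpL7-like) the arrays lay on both sides of 0, and the mean differences ran from -0.20 to 0.11.

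Other genes of protein synthesis were counted in the same fit, in lists drawn up with earlier results of these data known. No member of them passed the threshold over all probes. Among 62 mitochondrial ribosomal protein genes the median log2 ratio was 0.021, and by limma an unadjusted p under 0.05 was reached by 3 with a positive and 1 with a negative ratio, beside shares of 5.69% and 9.98% over all genes. The negative one, mRpS31, had log2 ratios of -0.32, -0.71 and -0.63 (mean -0.55 ± 0.21; limma adjusted p = 0.111). Among 49 translation factor genes the median was -0.034, with 4 higher and 6 lower. Both ends were held by subunits of initiation factor 3, which brings the small subunit to the mRNA. Among the lower were eIF3d2 at -0.68 ± 0.11 (limma adjusted p = 0.0726) and eIF3b at -0.48 ± 0.12, and among the higher was eIF3i at 0.30 ± 0.19. The gene eIF3d1, of a symbol related to eIF3d2, stood at -0.0082 ± 0.30, so the eIF3d2 value does not extend to it. Among 31 ribosome biogenesis genes the median was -0.0040, with 0 higher and 2 lower. Both this list and the mitochondrial one were dim. Above the blank level in all 6 channels were 6 of the 31 and 12 of the 62 genes, and 8 of each list were above it in none. Mybbp1A, a nucleolar protein gene, had the largest ratio of these lists, at -0.95, -0.95 and -1.19 (mean -1.03 ± 0.14; limma adjusted p = 0.0556). Among 15 regulators, such as genes of the TOR pathway and Myc, the median was 0.054, with 0 higher and 0 lower. The single genes named from these lists were chosen after their values were seen.

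**Figure D5:**
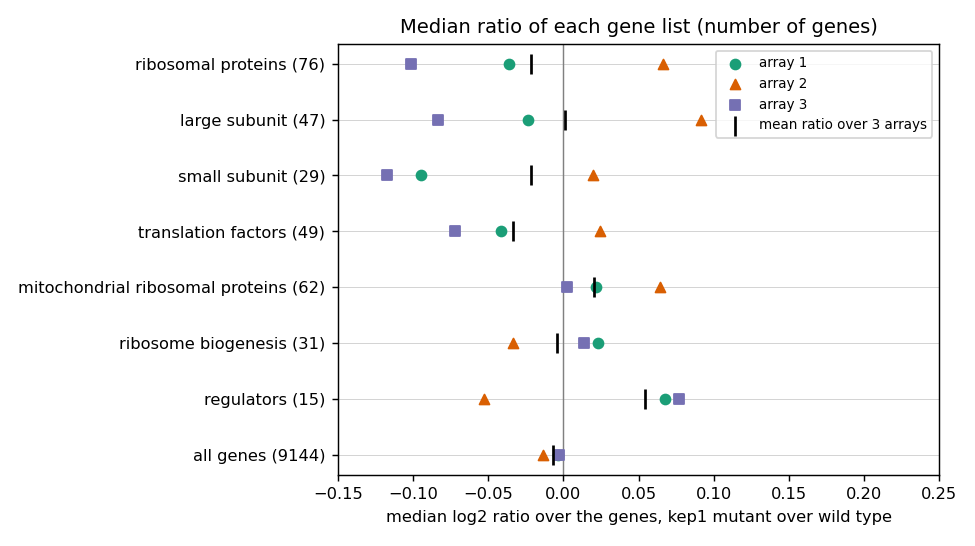
Median log2 ratio of kep1 mutant over wild type in each gene list, with the number of genes in brackets, on the 3 arrays (coloured symbols) and for the mean ratio (black bars). Every list median lies between -0.12 and 0.092; array 2 is the rightmost for the ribosomal protein, translation factor and mitochondrial lists and the leftmost for biogenesis and the regulators.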

How the data were processed

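Per the file headers, the deposited scanner tables hold linear, unnormalized foreground and local background intensity values for every spot in both channels. A deposited table of log2 values, log2 of the foreground ratio by comparison with the scanner values, served as an alternative. Of 27648 spots per array, 876 were controls, 1736 blank and 1548 failed products; the rest were 11744 probes in duplicate. Symbols came from CG numbers through an NCBI RefSeq table (Release 6 plus ISO1 MT).

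Intensities were background-corrected by normexp (offset 50), then normalized within arrays by loess, with controls, blanks, failed and ignored spots (22, 76 and 26 on arrays 1, 2 and 3, none of them a member's) at weight 0. Duplicates were averaged. Probes were tested if at least 1 channel exceeded its background by 2 background SDs on at least 2 arrays. limma 3.58.1 (R 4.3.3) tested the mean log2 ratio against 0, two-sided, with Benjamini-Hochberg adjustment over all probes. The number of arrays limits the precision.

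Named genes were kep1, the 10 members per direction with the largest means of 1 sign (4 above 0), all with 2 probes, related pairs and members of the roles given. Members and lists were chosen with earlier results of these data known. Alternatives were other background corrections, normalizations, filters and variance models, a threshold of 0.1, the mean of a gene's probes and leaving out each array.

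The steps were tested on simulated data in 2 settings. Known changes in brighter probes over a steady floor were recovered. With the noise of blank spots in each channel, estimates shrank and no changed probe passed the threshold. The easier setting was written after the harder one had failed, so neither measures how many true changes these arrays would show.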

Additional observations from a re-analysis of the deposited data

How the results depend on the processing

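No member probe passed the adjusted threshold under any of the alternatives run; the lowest adjusted p over them was 0.0691. The count over all probes depended on the processing: against 17, it was 434 with no background subtraction, 390 with plain subtraction, 423 in the deposited log2 table, 292 with an intensity trend and robust variances, 249 at an adjusted p under 0.1, 70 with median centring, 35 with the stricter filter and 0 with scaling between arrays, and it ran from 0 to 100 when 1 array was left out (0 without array 1 or array 3, 100 without array 2). Members higher at an unadjusted p under 0.05 numbered 1 with no background subtraction, plain subtraction, the deposited table, the intensity trend and the mean of a gene's probes, and 0 to 2 with 1 array left out (2 without array 3). Members lower numbered 1 with plain subtraction, 1 in the deposited table, 3 with the intensity trend, and 2 to 6 with 1 array left out (2 without array 1 and 2 without array 3, 6 without array 2). The small-subunit median ran from -0.12 (without array 2) to 0.0042 (without array 3), so its sign rests on single arrays. The large-subunit median ran from -0.066 (without array 2) to 0.047 (deposited table). The median of all members was 0.032 in the deposited table and ran from -0.070 to 0.025 with 1 array left out. Of 668 values of named members under 14 alternatives, 21 values of 11 genes moved by over 1 SD over arrays, and 47 values of 23 genes had the other sign, 0 of them among genes of 1 sign on all arrays. No named member was past the threshold under any of them, so these shifts turned no call. Each array holds 1 mutant and 1 wild-type RNA, so its log2 ratio is the paired value, and the test against 0 used a single group of such ratios. The causes of these shifts were not tested.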
